A study of Mus musculus with 2 samples.

Results

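The genes described here are 35 genes of DNA replication and S phase, the part of the cell cycle in which the genome is copied. They were listed by name, and each had to hold at least 20 unique molecular identifiers (UMIs, counted transcript molecules) in the matrix. All 35 of the 35 listed genes did, from 925 UMIs for Exo1 to 31137 for Dut, among 15594 genes with at least 20 UMIs and 20282 genes in all. The data were single-cell RNA profiles of whole thymus by the 10x Genomics 3′ method, with 6115 WT and 7568 KO cells and 29706197 and 37920214 UMIs. WT mice were Cdc42 f/f littermates and KO mice were Cdc42 f/f CD4Cre, all 6 weeks old, and the cells of 5 mice per genotype were pooled into 1 library. With 1 library per genotype there was no test of the genotype. Each value is that library's, and each interval is an exact 95% interval of counting error only, which does not cover the spread between mice. The Cre was driven by Cd4 regulatory sequence, which becomes active around the double-positive (DP) stage, so double-negative (DN) cells and cells that had just passed into the DP stage cannot be assumed to lack Cdc42. Cdc42 itself stood at 418 UMIs per 1000000 (CPM) in WT and 350 in KO cells of clusters 10 to 13, a ratio of 0.836 (0.801 to 0.872), and at 387 and 360 in the other clusters. The 3′ counts do not tell a transcript without the floxed exon from a whole one. The cell names carried Cdc45, which is 1 of the 35 genes, where the labels name Cdc42. Cdc45 stood at 84.5 CPM in WT and 83.5 in KO cells of clusters 10 to 13, and the labels were followed.

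A cell prepares its origins of replication in G1, when Cdc6 and Cdt1 load the ring-shaped MCM helicase onto DNA, and fires them in S phase, when Cdc45 and the GINS complex join that helicase and the polymerases follow. Many of these genes are targets of E2F transcription factors, so that their transcripts rise together as a cell commits to division. In the thymus the large bursts of division fall in DN cells, after the pre-T cell receptor is made, and in early DP cells, while most DP cells are small and resting.

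The promoters of a few of the genes are shown because the E2F motif, which the choice of genes did not use, was more frequent in the members' windows than in those of other genes, although 12 of the 27 genes with a window had it and the rest did not. Windows of 250 bases before to 50 after the start were taken from RefSeq (GRCm38.p6), and 27 of the 35 genes had at least 1, with 32 windows in all. The E2F motif was searched on both strands in the spellings TTTCCCGC, TTTCGCGC, TTTGCCGC and TTTGGCGC, with overlapping matches counted separately. It was in 37.5% of the members' windows, in 3.99% of the 12825 windows of genes with at least 20 UMIs and in 2.26% of all 32851 windows. CCAAT was in 56.2% of the members' windows and 38.2% of those of the genes with at least 20 UMIs. The motif TTTGAA was in 12.5% and 12.7%. Of the genes highest in cluster 10, 11 and 12, described next, the following with a single window and an E2F match had the most UMIs. They lie at chr4:126556730-126557029 (Clspn, plus strand), chr1:20820263-20820562 (Mcm3, minus strand), chr19:38930740-38931039 (Hells, plus strand), chr1:128359656-128359955 (Mcm6, minus strand) and chr8:75109259-75109558 (Mcm5, plus strand). They are written 5′ to 3′ on the gene's own strand, with E2F matches in capitals. A match is a stretch of letters and not a measured binding site.
Clspn promoter: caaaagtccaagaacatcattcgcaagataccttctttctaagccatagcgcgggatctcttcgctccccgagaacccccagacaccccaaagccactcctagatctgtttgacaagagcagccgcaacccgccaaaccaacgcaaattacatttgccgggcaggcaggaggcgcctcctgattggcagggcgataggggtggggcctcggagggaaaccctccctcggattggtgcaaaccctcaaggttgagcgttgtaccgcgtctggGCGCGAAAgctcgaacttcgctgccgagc
Mcm3 promoter: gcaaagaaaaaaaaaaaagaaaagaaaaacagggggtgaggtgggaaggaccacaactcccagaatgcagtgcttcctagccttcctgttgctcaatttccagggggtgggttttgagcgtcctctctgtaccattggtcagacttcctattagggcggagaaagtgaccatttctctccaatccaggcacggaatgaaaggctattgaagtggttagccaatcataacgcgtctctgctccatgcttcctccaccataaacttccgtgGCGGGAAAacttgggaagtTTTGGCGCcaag
Hells promoter: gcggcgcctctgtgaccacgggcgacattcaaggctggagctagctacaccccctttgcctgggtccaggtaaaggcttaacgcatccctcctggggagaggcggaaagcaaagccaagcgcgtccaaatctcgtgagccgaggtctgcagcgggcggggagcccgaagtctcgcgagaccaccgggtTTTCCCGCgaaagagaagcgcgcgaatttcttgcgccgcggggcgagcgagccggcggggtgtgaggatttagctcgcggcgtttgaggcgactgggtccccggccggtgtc
Mcm6 promoter: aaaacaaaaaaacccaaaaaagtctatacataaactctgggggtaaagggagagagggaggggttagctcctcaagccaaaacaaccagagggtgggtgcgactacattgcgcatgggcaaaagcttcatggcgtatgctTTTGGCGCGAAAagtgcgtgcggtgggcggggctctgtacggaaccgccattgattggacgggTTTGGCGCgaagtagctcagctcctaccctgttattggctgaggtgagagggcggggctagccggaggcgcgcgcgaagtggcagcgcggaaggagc
Mcm5 promoter: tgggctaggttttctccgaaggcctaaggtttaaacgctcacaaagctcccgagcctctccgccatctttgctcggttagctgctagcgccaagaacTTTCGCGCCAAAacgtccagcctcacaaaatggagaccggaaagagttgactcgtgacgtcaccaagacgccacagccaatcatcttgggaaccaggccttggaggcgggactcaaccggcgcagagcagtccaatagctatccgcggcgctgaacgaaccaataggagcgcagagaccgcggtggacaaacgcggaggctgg
In Mcm5 and Mcm6 matches on the 2 strands overlapped, so that the capitals form a longer run. Pcna, Rrm2, Tyms and Dut had no match in these windows, which says only that these spellings were not in them.

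Transcripts of the 35 genes were concentrated in clusters 10 to 13 of the 19 that the authors deposited, 4 clusters high in S phase or mitotic transcripts. Clusters 10 to 13 held 686 of the WT cells (11.2%) and 737 of the KO cells (9.74%), with 80.8% of the members' UMIs in WT and 83.0% in KO. The members summed to 8607 CPM there against 1036 in the other clusters in WT, and to 8538 against 887 in KO. These are ratios of 8.31 (8.19 to 8.44) and 9.63 (9.49 to 9.77). All 35 genes had intervals above 0 in both libraries, as had 21% of all genes with enough UMIs, and the folds ran from 2.45 for Rfc2 in WT to 56.4 for Rrm2 in KO. The clusters were made from these transcriptomes, these genes included, so the differences between them are a description. T lineage transcripts were present in all 4. Rag1, which cuts the antigen receptor genes for rearrangement, stood at 461 CPM in WT and 458 in KO in cluster 10, 394 and 333 in cluster 11, 139 in each library in cluster 12, and 1438 and 1337 in cluster 13. The 6 macrophage markers summed to 40.6 CPM or less, and erythroid markers to 4.9 or less except for 1720 in WT cells of cluster 13. B cell markers summed to between 327 and 1047 CPM, and dendritic cell markers to 39.9 or less except for 243 in WT cells of cluster 12. Their part in the members' levels was not tested.

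The 4 clusters differed in their balance of S phase and mitotic transcripts. A set of 23 genes of G2 and mitosis was summed beside the members. Cluster 12 had the most S phase transcripts, with 11159 CPM in WT and 11127 in KO against 6826 and 7088 for the mitotic set. Cluster 11 had 9678 and 8929 against 3845 and 3757, the highest ratio of S phase to mitotic transcripts of the 4 (2.52 and 2.38). Cluster 10 had 7617 and 7327 but the highest mitotic sum, 18962 and 18523. Cluster 13 was high in the mitotic set alone, with 12431 and 13511 CPM of it, though not in all of its cells (shares below). It had 1263 and 1227 CPM of the replication genes, where clusters 0 to 5 and 9, which hold most cells (4171 WT and 5484 KO), had 780 and 798. Outside these 4, the clusters with the highest sums were both small. Cluster 17, with 26 cells in each library and medians of 1074 and 1380 UMIs per cell, had 11665 and 8513 CPM. Cluster 18, with 24 WT and 8 KO cells and 2653 and 3868 CPM of markers of single-positive (SP) cells, had 6114 and 6539.

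**Figure D1:**
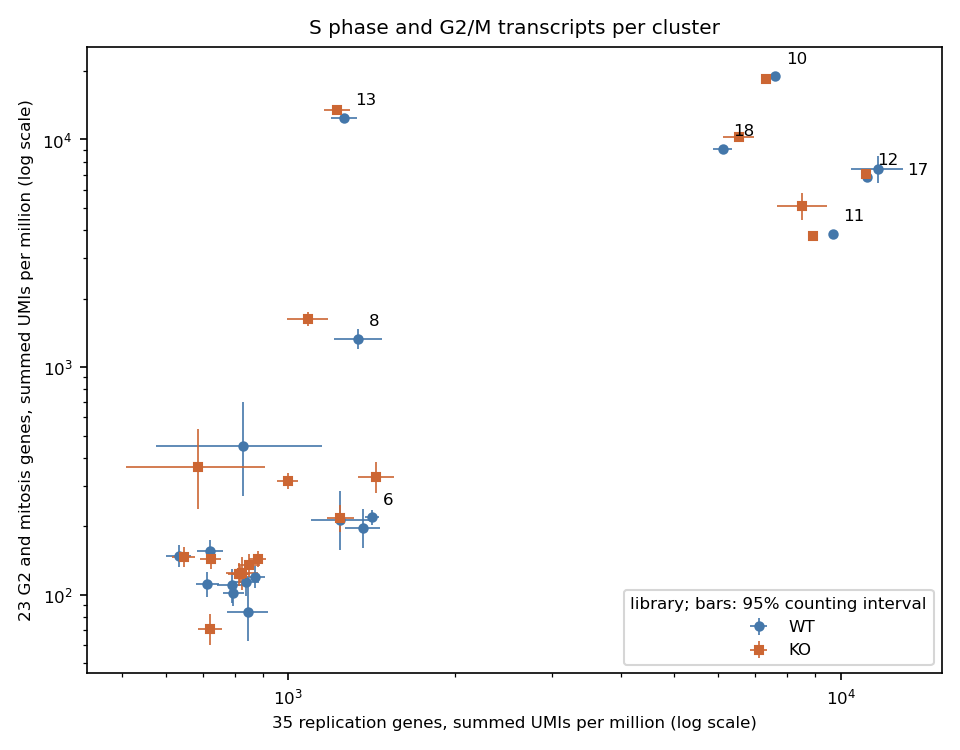
Summed level of the 35 replication genes (horizontal, CPM, log scale) against that of 23 genes of G2 and mitosis (vertical, CPM, log scale), 1 point for each deposited cluster and library with 95% counting intervals. Clusters 10, 11, 12, 17 and 18 lie at the right with at least 6114 CPM of replication genes, cluster 13 at the top left with 1263 in WT and 1227 in KO, and WT and KO lie close together in each of clusters 10 to 13 but not in cluster 17 (11665 and 8513).

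Among the 6 MCM genes, whose products form the ring of the replicative helicase, levels were highest in clusters 11 and 12, lower in cluster 10 and lowest in cluster 13. Their sum was 2113 CPM in WT and 2062 in KO in cluster 11, 1958 and 1921 in cluster 12, 917 and 879 in cluster 10, and 208 and 264 in cluster 13. Mcm3 stood at 456 and 439 CPM in cluster 11 and at 153 and 150 in cluster 10. Mcm2 stood at 185 in each library in cluster 11 and at 52.7 and 61.2 in cluster 10. Mcm6 stood at 438 and 425 in cluster 11 and 461 and 437 in cluster 12. Mcm4 had 274 and 285 in cluster 11 and 203 and 212 in cluster 12, and Mcm5 and Mcm7 differed little between these 2 clusters.

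The loading factors Cdc6 and Cdt1 were highest in cluster 11. Cdc6, which loads MCM rings, had 118 CPM in WT and 114 in KO in cluster 11, 104 and 96.7 in cluster 12, and 27.6 and 28.4 in cluster 10. Its partner Cdt1 had 109 and 110 CPM in cluster 11 and 40.8 and 49.5 in cluster 10. Gmnn (geminin), which holds Cdt1 in check once S phase has begun, was different. It had 317 and 269 CPM in cluster 11, 406 and 389 in cluster 12 and still 347 and 333 in cluster 10. The helicase cofactors split as well. Gins2 held 367 and 413 UMIs in cluster 11 (128 and 115 CPM) and 122 and 128 in cluster 10, and Gins1 at 50.4 and 61.7 against 35.2 and 33.4. Cdc45, which joins MCM and GINS in the running helicase, was at 75.9 and 56.7 in cluster 11 and 83.8 and 88.0 in cluster 10.

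Most genes that act at the moving fork were highest in cluster 12. Pcna, the sliding clamp that tethers polymerases, reached 1077 CPM in WT and 1115 in KO there, against 702 and 668 in cluster 11 and 625 and 679 in cluster 10. The clamp loader subunit Rfc2 had 194 and 189 CPM in cluster 12 and 50.7 and 51.0 in clusters 0 to 5 and 9. Rpa2, a subunit of the protein that coats single-stranded DNA, was higher in cluster 11 (176 and 159) than in cluster 12 (152 and 140). Pola1 and Prim1 belong to the polymerase alpha-primase complex that starts each strand. Pola1 had 173 and 159 CPM in cluster 12, and Prim1 had 222 and 201. Pold3, a subunit of polymerase delta, varied little between clusters 10, 11 and 12, from 72.7 to 100.1 CPM. Fen1 and Lig1 trim and join Okazaki fragments. Fen1 had 154 and 160 CPM in cluster 12 and 99.5 and 94.9 in cluster 10, and Lig1 had 426 and 453 against 250.2 and 254.

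Of the 4 genes of nucleotide supply, 3 were higher in cluster 10 than in cluster 11. Rrm2, the regulated subunit of ribonucleotide reductase, was at 884 CPM in WT and 818 in KO in cluster 10, 659 and 674 in cluster 12 and 395 and 332 in cluster 11. Its partner Rrm1 had 333 and 313 in cluster 10 and 237 and 213 in cluster 11. Tyms (thymidylate synthase) had 537 and 498 in cluster 10 and 231 and 185 in cluster 11. Dut, which removes dUTP, was highest in cluster 12, with 1519 and 1455 CPM in cluster 12, 1331 and 1155 in cluster 11 and 1048 and 945 in cluster 10.

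Chromatin copying genes mostly followed the helicase. Hells, a chromatin remodeler, had 404 CPM in WT and 417 in KO in cluster 11 and 107 and 108 in cluster 10. Uhrf1, which brings the maintenance methyltransferase to new DNA, had 343 and 315 against 237 and 219. The histone chaperones Nasp and Chaf1b were at 570 and 547, and at 106 and 97.6, in cluster 11, and at 354 and 350, and 32.6 and 29.0, in cluster 10. Slbp, which binds histone mRNA, was highest in cluster 12, at 574 and 640. For fork protection, Clspn stood at 320 and 303 in cluster 10 and 207 and 176 in cluster 11, and Tipin at 256 and 261 against 304 and 275. Ccne2, which encodes cyclin E2 and acts at S phase entry, had 101 and 82.0 in cluster 11 and 43.3 and 35.3 in cluster 10. The transcription factor gene E2f1 had 69.6 and 61.4 against 14.8 and 16.1.

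Ung, which cuts uracil out of DNA, had the sharpest pattern. It held 355 UMIs in WT and 483 in KO in cluster 11, 130 and 234 in cluster 12, and 0 and 2 in cluster 10, although cluster 10 held 3185908 and 3657165 UMIs in all. In CPM this was 124 and 134 in cluster 11, and 0.547 in KO cells of cluster 10. Clusters 0 to 5 and 9 had 3.29 and 3.94 CPM of Ung. Of the cluster 10 cells, 0 of 232 in WT (upper bound 1.58%) and 0.866% in KO held a Ung UMI, at medians of 12526 and 14361 UMIs per cell. In cluster 11 the shares were 73.4% and 76.6%, at medians of 12864 and 17206, and in clusters 0 to 5 and 9 they were 0.983% and 1.29%. Thinned to 1000 UMIs per cell the shares were 10.7% (6.59 to 16.2) and 11.2% (7.05 to 16.6) in cluster 11 and 0.363% and 0.366% in clusters 0 to 5 and 9.

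**Figure D2:**
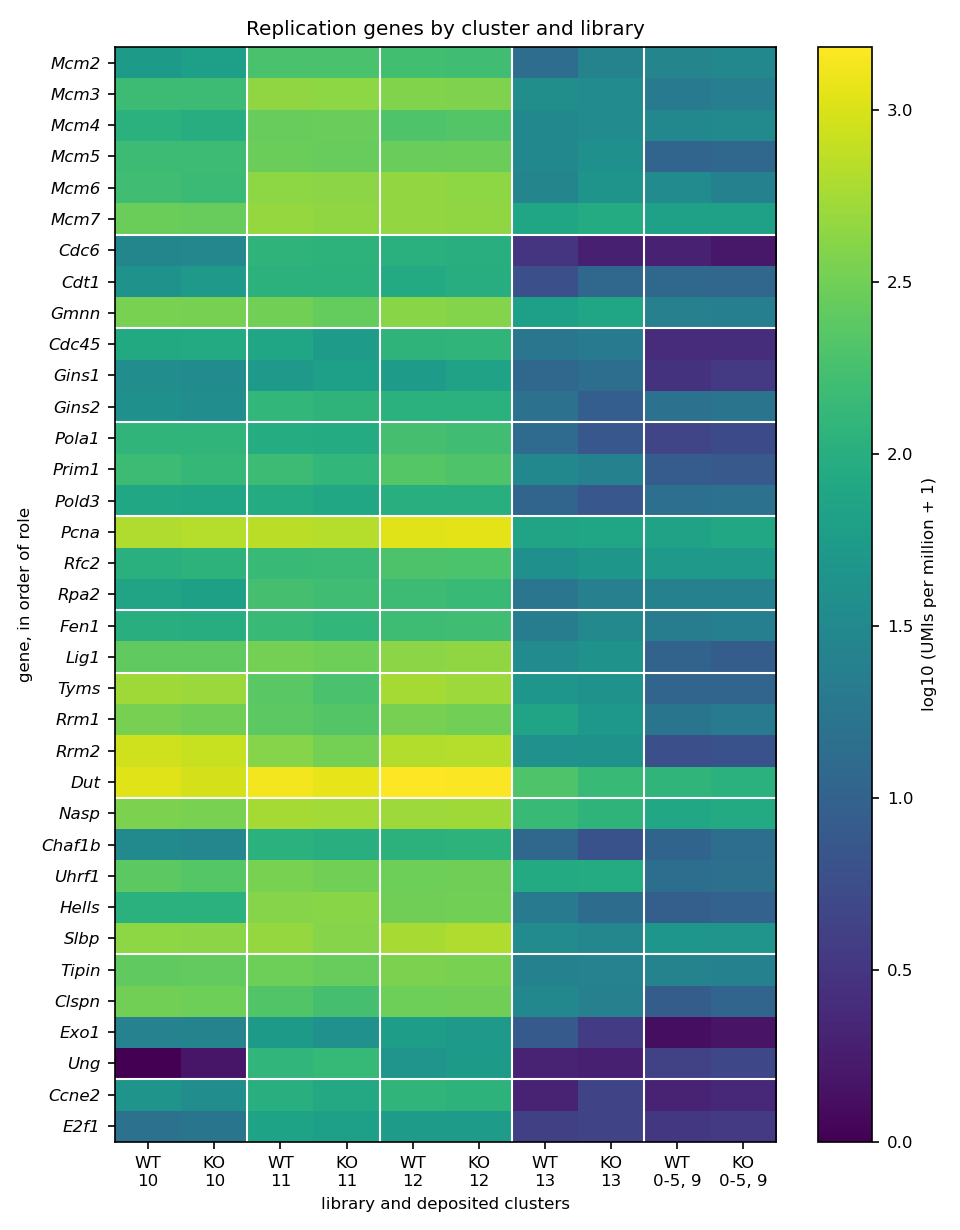
Level of each of the 35 genes (1 line each, grouped by role) as log10(CPM + 1) in WT and KO cells of clusters 10, 11, 12 and 13 and of clusters 0 to 5 and 9. The WT and KO columns of a cluster look alike, clusters 11 and 12 are brightest for most genes, Rrm2 is bright in cluster 10, and Ung is at or near 0 there.

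Cluster 10 was then set against cluster 11 gene by gene, in each library on its own. Of the 35 genes, 23 had intervals below 0 in both libraries, where 16.5% of all genes with enough UMIs did, and 6 had intervals above 0 in both (Tyms, Rrm1, Rrm2, Gmnn, Pola1 and Clspn), where 19.5% did. The log2 ratio of Tyms was 1.22 (1.09 to 1.35) in WT and 1.43 (1.30 to 1.56) in KO, and that of Rrm2 was 1.16 (1.06 to 1.26) and 1.30 (1.20 to 1.40). At the other end stood E2f1, with -2.23 (-2.73 to -1.77) and -1.92 (-2.37 to -1.51), and Cdc6, with -2.09 (-2.45 to -1.75) and -2.002 (-2.33 to -1.69). The members' median was -0.53 in WT and -0.64 in KO, beside medians of 0.05 and 0.06 over all genes. The sign was the same in both libraries for 32 of the 35 genes, and the share of all genes was not counted. The 35 ratios of the libraries had a Pearson correlation of 0.987 across genes, which are not independent replicates. Ung, at -9.63 in WT and -7.62 in KO from 0 and 2 UMIs in cluster 10, lies far from the rest and weighs heavily in it. With each cell thinned to 1000 UMIs the counts were 15 below and 2 above, and without the 5% of cells with most UMIs 3 were above. Cluster 12 over cluster 11 gave 15 genes with intervals above 0 in both libraries (6.14% of all genes) and 7 below (8.78%), the latter being Mcm2, Mcm3, Mcm4, Cdt1, Ung, Hells and Rpa2. In cluster 13 over cluster 10 all 34 genes with at least 20 UMIs in both libraries had intervals below 0 in both, where 12.1% of all genes did. The remaining gene was Ung, with at most 2 UMIs per library in either cluster.

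**Figure D3:**
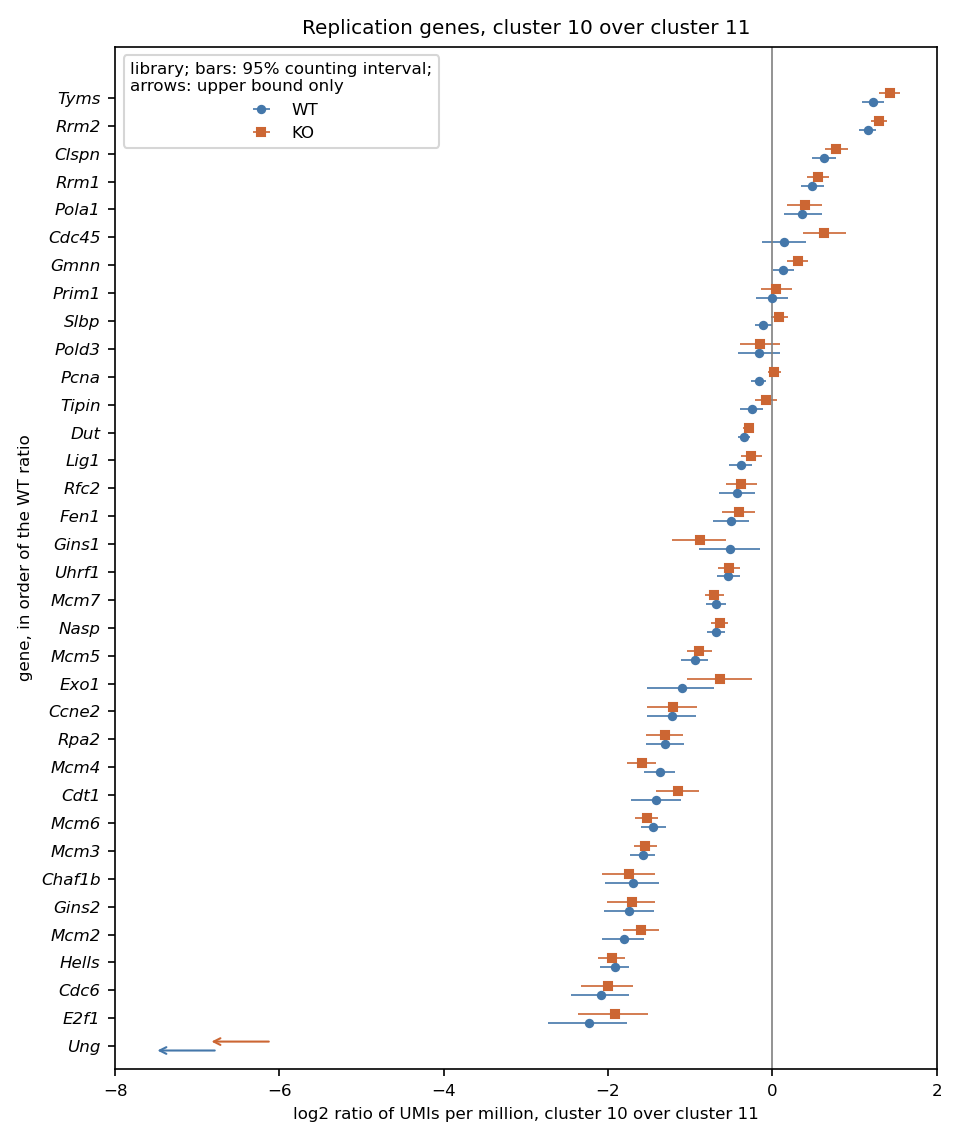
Log2 ratio of CPM in cluster 10 over cluster 11 for each gene in WT and KO, with 95% counting intervals, in the order of the WT ratio. Tyms and Rrm2 are highest at 1.16 to 1.43, the MCM genes lie below 0 in both libraries, E2f1 has -2.23 in WT, and Ung is drawn as an arrow from its upper bound (-6.74 in WT and -6.08 in KO).

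Cell by cell, most S phase transcripts lay in cells of clusters 10, 11 and 12. Each cell was thinned to 1000 UMIs, which left out 236 WT and 220 KO cells with fewer. Of the remaining cells 9.17% (8.44 to 9.94) of 5879 in WT and 7.63% (7.04 to 8.27) of 7348 in KO kept at least 5 UMIs of the 35 genes, a range of a count and not a cell type. The cells next to that limit, with exactly 4 or 5, were 84 and 65 in WT and 96 and 57 in KO. Clusters 10 to 13 held 87.0% of the WT and 89.8% of the KO cells in that range. In cluster 12 it took in 97.1% (92.7 to 99.2) and 96.8% (93.1 to 98.8) of the cells, in cluster 11 it took in 89.3% (83.8 to 93.4) and 86.2% (80.4 to 90.8), in cluster 10 it took in 74.1% (68.0 to 79.7) and 68.4% (62.0 to 74.3), and in cluster 13 it took in 3.60% (1.18 to 8.195) and 3.05% (0.838 to 7.63). In clusters 0 to 5 and 9 it took in 0.387% (0.222 to 0.628) and 0.256% (0.140 to 0.429). Within clusters 10 to 13 the shares were 68.4% in WT and 68.5% in KO. Outside them the shares were 1.35% (1.05 to 1.70) in WT and 0.862% (0.654 to 1.11) in KO, and the KO library had a smaller share of its cells in clusters 10 to 13. The share of cells in a cluster comes from 1 pooled library per genotype, and loading and dissociation cannot be told apart from genotype. Cells with at least 5 UMIs of both the members and the mitotic set were 73.3% of WT and 68.4% of KO cells in cluster 10, 69.6% and 65.6% in cluster 12 and 16.95% and 18.1% in cluster 11. At least 5 UMIs of the mitotic set were kept by 53.2% of WT and 59.5% of KO cells in cluster 13, against 99.1% and 100% in cluster 10. Of the cluster 13 cells, 46.0% in WT and 38.9% in KO reached 5 UMIs of neither set.

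In clusters 10 to 13 summed, the 35 genes were at nearly the same level in KO as in WT. The median log2 ratio of KO over WT was 0.00, beside 0.04 over 12365 genes, and the members' sum had a ratio of 0.992. In clusters 10, 11, 12 and 13 taken singly the sum had ratios of 0.962, 0.923, 0.997 and 0.971. On the log2 scale the interval of the sum lay below 0 in clusters 10 and 11. Cluster 12 held 138 of the 686 WT cells and 186 of the 737 KO cells. Ratios over the 4 clusters summed therefore also carry the mix of clusters, whose part was not tested. None of the 35 genes differed by 0.5 or more on the log2 scale in either direction, where 2.8% of the genes with at least 100 UMIs were higher and 0.918% lower by that much. The highest ratios were those of Gins1 (0.23, 0.05 to 0.41), Ung (0.22, 0.05 to 0.39) and Cdt1 (0.16, 0.02 to 0.30), and the lowest those of Exo1, a nuclease of DNA repair (-0.22, -0.42 to -0.03), Prim1 (-0.14, -0.24 to -0.04) and Tyms (-0.11, -0.17 to -0.05). Intervals lay above 0 for 7 genes (11.1% of all genes) and below 0 for another 7 (6.62%). The genes below were Tyms, Rrm1, Rrm2 and Dut, which are the 4 genes of nucleotide supply, with Gmnn, Prim1 and Exo1. Those above were Pcna, Rfc2, Lig1, Hells, Gins1, Cdt1 and Ung. The directions did not all hold. With each cell thinned to 1000 UMIs the ratio was 0.15 for Tyms, -0.42 for Rfc2 and -0.021 for Cdt1. Thinning leaves far fewer UMIs of each gene, and these ratios have no interval, so a change of sign may be counting error. Without the 5% of cells with most UMIs it was -0.019 for Pcna and -0.074 for Lig1, and it came to 0.0078 for Gins1 and 0.018 for Ung. In UMIs, Dut had 11818 in WT and 14102 in KO (1182 and 1107 CPM), Tyms had 4088 and 4811 (409 and 378 CPM), and Pcna had 7238 and 9823 (724 and 771 CPM).

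Cluster by cluster the ratios stayed small except in the shallow cluster 13. In cluster 10 none of 34 genes was past 0.5 (2.6% of all genes higher, 1.02% lower), and the median was -0.06. The ends were Cdt1 (0.28), Mcm2 (0.21) and Rfc2 (0.14), and Ccne2 (-0.30), Prim1 (-0.19) and Chaf1b (-0.17). In cluster 12 none of 35 was (2.48% higher, 1.27% lower), with a median of 0.02. Its ends were Ung (0.28), Gins1 (0.23) and Slbp (0.16), and Exo1 (-0.26), Prim1 (-0.14) and Rpa2 (-0.12). In cluster 13, 7 genes reached 100 UMIs. Dut, with 205 UMIs in WT and 157 in KO (-0.54, -0.85 to -0.24), and Rrm1, with 71 and 55 (-0.53, -1.06 to 0.00), were lower by 0.5 or more, where 1.4% of all genes were, and none was higher, where 3.59% were. The count of genes lower by 0.5 or more with at least 100 UMIs was 0 with a mean over cells, with thinning or without the deepest 5% of cells. The other ends there were Nasp (-0.21), and Mcm7 (0.32), Gmnn (0.26) and Pcna (0.05).

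Cluster 11 stood out by direction and not by size. None of its 35 genes was past 0.5 (3.21% of all genes higher, 1.08% lower), but 29 of 35 ratios were below 0, while 56.6% of all genes were above 0. The members' median was -0.12 beside 0.04 over all genes. A set of 52 further replication genes, outside the list, did not share the direction. In cluster 11 its median was 0.003, with 27 ratios above 0 and 25 below. Intervals lay below 0 for 12 genes (Tyms, Rrm1, Rrm2, Dut, Gmnn, Cdc45, Slbp, Prim1, Tipin, Clspn, Exo1 and Ccne2), where 5.04% of all genes did, and above 0 for none, where 7.83% did. The lowest were Exo1 (-0.45, -0.79 to -0.11), Cdc45 (-0.42, -0.70 to -0.14) and Tyms (-0.32, -0.47 to -0.16), and the highest Gins1 (0.29), Ung (0.11) and Rfc2 (0.09). Each of the 12 was a gene whose level was highest in cluster 10 or 12, but so were most members. Of the 35 genes 21 were highest in cluster 12, 2 in cluster 10 and 12 in cluster 11. The highest cluster was taken from the same counts, KO cells of cluster 11 included. A low KO value in cluster 11 makes it less likely to be a gene's highest, so no conclusion is drawn. The KO cells of cluster 11 were deeper, with a median of 17206 UMIs against 12864, and had more DN marker transcripts, 353 CPM against 241. The KO cells of cluster 12, where the members' median was 0.02, were deeper as well, with 22445 UMIs against 19013, and also had more DN marker transcripts, 285 CPM against 204, and those of cluster 10 had 14361 UMIs against 12526 and 150.1 CPM against 122. The part of depth and DN markers in the ratios was not tested. Across the 4 clusters, Tyms, Rrm1, Dut, Mcm3, Prim1 and Pola1 were below 0 in each and Cdt1 was above 0 in each. The share of all genes with the same sign in all 4 was not counted. Some of these signs rest on few UMIs in cluster 13, where Pola1 had 12 in WT and 7 in KO, Cdt1 had 5 and 12, and Mcm3 had 37 in each.

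**Figure D4:**
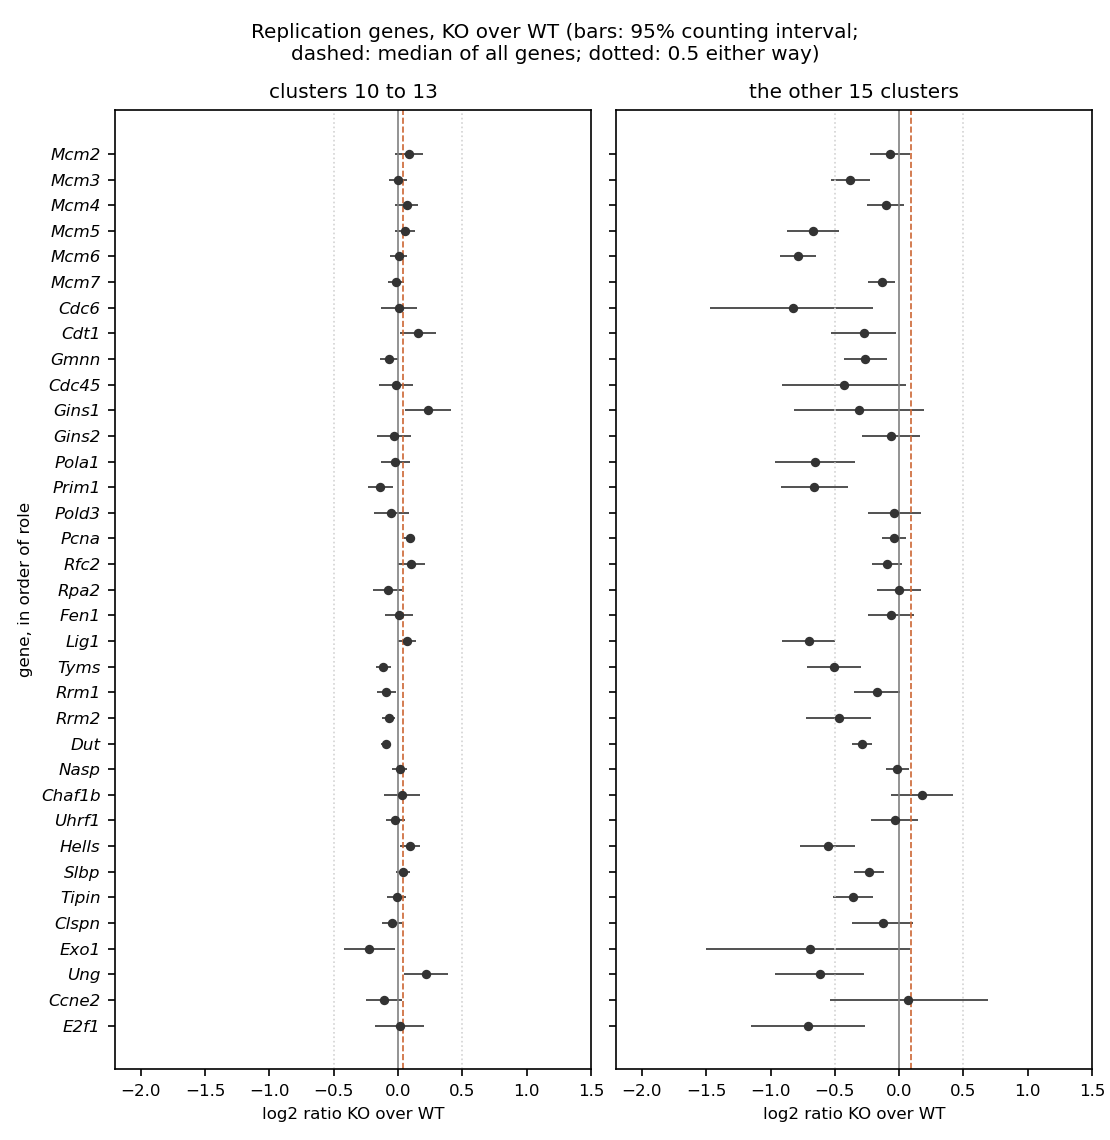
Log2 ratio of CPM in KO over WT for each gene with its 95% counting interval, in clusters 10 to 13 summed (left) and in the other 15 clusters summed (right), with the median of all genes dashed and 0.5 either way dotted. On the left every gene lies between -0.22 and 0.23. On the right 33 of 35 lie below 0, where 67.55% of all genes lie above 0, down to -0.79 for Mcm6 among genes with at least 100 UMIs.

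Of the other clusters, 17 and 18 also had high mitotic sums. These were 7411 CPM in WT and 5098 in KO cells of cluster 17, and 9116 and 10259 in those of cluster 18. In the other clusters summed, with 17 and 18 included, the picture was different. There the members' median was -0.28, beside 0.09 over 14782 genes, 33 of 35 ratios were below 0, and their sum was 1036 CPM in WT and 887 in KO. Of 32 genes with at least 100 UMIs, 9 were lower in KO by 0.5 or more (Mcm5, Mcm6, Tyms, Ung, Hells, Lig1, Prim1, Pola1 and E2f1), where 2.52% of all genes were, and none was higher, where 4.2% were. Intervals lay below 0 for 18 of 35 genes (8.53% of all genes) and above 0 for none (25.9%). Among those with at least 100 UMIs the lowest were Mcm6 (-0.79, -0.93 to -0.65), E2f1 (-0.71, -1.15 to -0.27) and Lig1 (-0.70, -0.91 to -0.50). At the other end were Chaf1b (0.18, -0.06 to 0.42), Rpa2 (0.00) and Nasp (-0.01). Cdc6, with 53 UMIs in WT and 38 in KO, had -0.83 (-1.47 to -0.21). The mitotic set was lower there too, at 369 and 245 CPM with 16 of 23 genes lower by 0.5 or more, and the 52 other replication genes had a median of -0.08. Of the mitotic UMIs there, 4014 of 7280 in WT and 1448 of 6178 in KO came from cluster 18. Without cluster 18, a setting chosen after seeing the data, the mitotic sums were 169 CPM in WT and 189 in KO, so that the direction turned, and in cluster 6 they were 219 and 316.

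The difference was not spread evenly over these clusters. In clusters 0 to 5 and 9 the members summed to 780 CPM in WT and 798 in KO, with a median ratio of 0.10 beside 0.05 over all genes. In cluster 6, with 2358 and 2657 CPM of SP markers, they summed to 1419 and 998, a ratio of 0.703, and 12 of 20 genes with at least 100 UMIs were lower by 0.5 or more, where 3.45% of all genes were. Hells had 136 UMIs there in WT and 35 in KO, and Mcm3 had 230 and 77. Clusters at the authors' resolution of 1.8 that were summed beside it differed. A cluster of 325 WT and 136 KO cells had 1621 and 1181 CPM. Another of 173 and 186 cells had 790 and 802 CPM. A small one of 20 and 23 cells had 1263 and 1087 CPM, with a log2 ratio of -0.21 (-0.55 to 0.12). Together they hold more cells than cluster 6, so they also take in cells from outside it. The 5% of each library's cells with the most UMIs included 11 of the 479 WT and 3 of the 316 KO cells of cluster 6. Without them its sums were 1148 and 947 CPM, and the members' median ratio was -0.40, beside 0.15 over all genes. Cluster 18 added 2692 UMIs from 24 WT cells and 923 from 8 KO cells. Over all clusters outside 10 to 13 the median was -0.02, beside 0.09 over all genes, once the deepest 5% of cells were left out. In that setting 1 of 32 genes was past 0.5, and the share of all genes was not counted. Without clusters 6, 17 and 18 the median was 0.09, beside 0.08 over all genes, and 1 of 30 genes was lower by 0.5 or more, where 1.44% of all genes were.

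**Figure D5:**
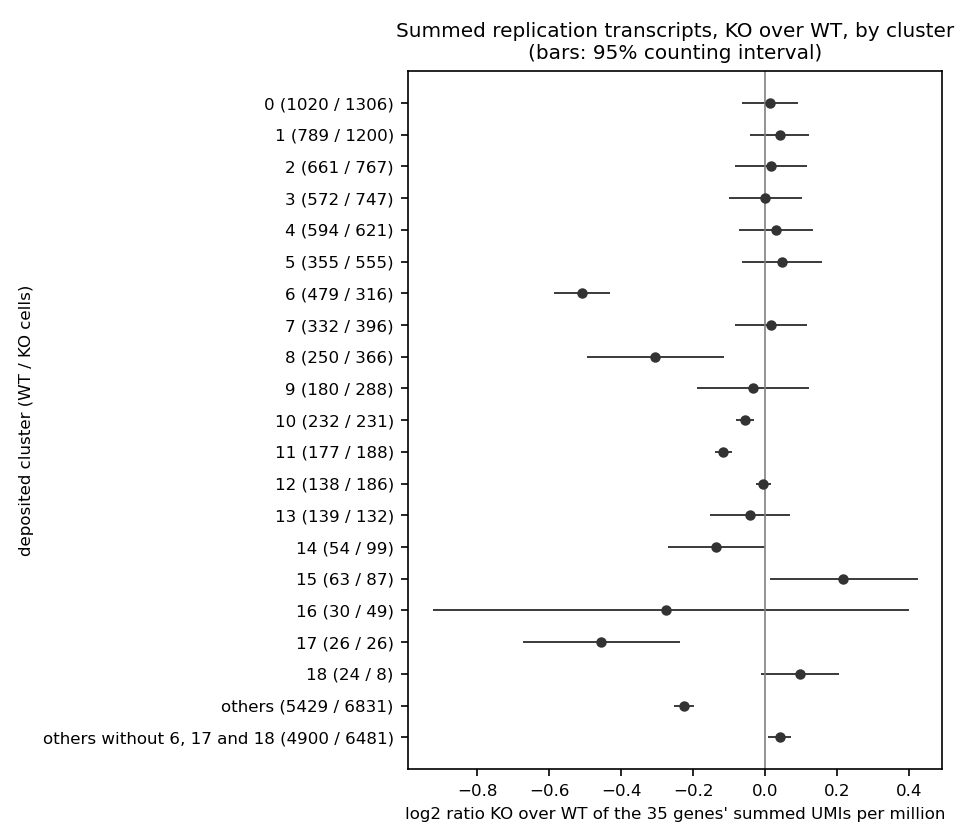
Log2 ratio of KO over WT of the 35 genes' summed CPM in each deposited cluster (WT and KO cells in brackets), in all clusters outside 10 to 13, and in those without 6, 17 and 18, with 95% counting intervals. Clusters 6, 17 and 8 lie lowest among those whose intervals exclude 0 (-0.51, -0.45 and -0.30), clusters 0 to 5 lie within 0.05 of 0, and the summed ratio moves from -0.22 to 0.04 without clusters 6, 17 and 18.

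The 1 gene still lower by 0.5 or more in both of these settings was Mcm6. It was lower in KO in 15 of the 15 clusters outside 10 to 13, a pattern that 0.23% of the 11292 genes with at least 100 UMIs there had, while 0.31% were higher in all 15 and none of the 32 members was. Cluster 16 counts in this with 1 UMI in WT and 0 in KO, and cluster 17 with 7 and 9. In clusters 0 to 5 and 9 it had 429 UMIs in WT and 456 in KO, or 33.6 and 24.3 CPM (-0.47, -0.66 to -0.27). It was lower in KO in each of those 7 clusters, as were 2.64% of all genes there. Its levels in them ran from 27.8 to 45.0 CPM in WT and from 20.6 to 27.0 in KO. Dut was lower in each of the 7 as well, at 118 and 106 CPM (-0.16, -0.25 to -0.06). Chaf1b was higher in each of the 7, as were 6.08%, at 9.70 and 13.04 CPM (0.42, 0.11 to 0.75). In clusters 10 to 13 Mcm6 had 3144 UMIs in WT and 4019 in KO, with a ratio of 0.00 (-0.06 to 0.07), and in cluster 13 alone it had 27 and 49. Of the other MCM genes in clusters 0 to 5 and 9, Mcm3 was at 19.02 and 21.7 CPM, Mcm5 at 9.78 and 10.9, and Mcm7 at 65.4 and 65.8. The clusters share a library and are not replicates, and none of these ratios was tested.

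Other genes of the same process were also measured. Of 52 further replication genes in the matrix none was past 0.5 in clusters 10 to 13, and their median ratio was 0.03. The highest were Orc5 (0.45, 0.02 to 0.90), Pole (0.21, 0.02 to 0.40) and Dna2 (0.20, -0.02 to 0.43), and the lowest Orc6 (-0.23, -0.32 to -0.14), E2f8 (-0.17, -0.28 to -0.05) and Ccne1 (-0.14, -0.30 to 0.02). Orc5 and Orc6 encode subunits of the origin recognition complex, and Pole the catalytic subunit of polymerase epsilon. The 23 mitotic genes had a median of -0.08 and a summed ratio of 0.961 over clusters 10 to 13. That summed ratio was lower than in any of the 4 clusters singly. In clusters 10, 11, 12 and 13 it was 0.977, 0.977, 1.04 and 1.09, so the direction differed between them. The part of the mix of clusters was not tested. Over the 19 clusters each member was correlated with the sum of the others as log2(CPM + 1), with a median r of 0.934. The least alike were Ung (0.576) and Rpa2 (0.736), and all 10662 other genes with at least 200 UMIs had a median of -0.27. The median was 0.818 for the 23 mitotic genes and 0.799 for the 52 further replication genes, so a high r was not particular to the 35. Outside the 35, genes most like their sum included Lrr1 (0.977), Aunip, Dnmt1, Mcm10, Nudt5, Rcc1, Dek, Supt16 and Pole (0.954). Clusters share libraries and depth, and the correlation is a description.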

How the data were processed

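Per the submitters' processing notes, the tools were Cell Ranger 3.0.2, STAR and Seurat, with the mm10 genome. The annotation is not given in the sources used here. The authors deposited whole UMI counts per gene and cell, with cluster numbers at several resolutions. They left out cells with too few or too many genes. The cells, 13683, were used as deposited, and their sums equal the deposited totals. No doublets were removed, and 17 barcodes occur in both libraries. The deposited counts were added up for each cluster of each library and scaled to that total (CPM). Ratios are log2 with 0.5 added to each sum. Intervals are exact (Poisson, conditional binomial, Clopper-Pearson; scipy 1.17.1). A gene counts as past the fold at 0.5 or more on the log2 scale with at least 100 UMIs. List medians need 20 UMIs. Scripts were tested on simulated data. Alternatives used edgeR 4.0.16 and DESeq2 1.42.0 for scaling alone, and Scrublet in scanpy 1.11.5. Reads of overlapping genes and of processed pseudogenes (such as Pcna-ps1, Tyms-ps and Nasp-ps1) can be miscounted. Members are given by role, with the 3 highest and 3 lowest ratios per set of cells; Mcm6, Dut and Chaf1b were singled out after their values were seen. The members and lists were chosen with earlier results of these data known. A planned search of protein motifs was not run, for want of a protein table. Some results are not reported here.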

Additional observations from a re-analysis of the deposited data

Results flagged for a closer look

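For 4 genes the ratio of KO over WT had intervals on opposite sides of 0 inside and outside clusters 10 to 13. The log2 ratio in clusters 10 to 13 and in the other clusters was 0.16 and -0.28 for Cdt1, 0.22 and -0.62 for Ung, 0.094 and -0.55 for Hells, and 0.072 and -0.70 for Lig1. For Slbp the ratio was 0.16 in cluster 12 (0.07 to 0.24) and -0.22 in cluster 11 (-0.32 to -0.11). With 1 library per genotype none of these differences was tested. The opposite signs did not hold under each setting. Without clusters 6, 17 and 18 the ratio outside clusters 10 to 13 was 0.13 for Ung and 0.094 for Hells. With cells thinned to 1000 UMIs Cdt1 had -0.021 in clusters 10 to 13 and 0.22 in the other clusters, and without the 5% of cells with most UMIs Lig1 had -0.074 in clusters 10 to 13.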

How the results depend on the processing

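No paired analysis was possible because each genotype had 1 pooled library, and no replicate could be left out for the same reason. Of 246 values of the main results under other settings 212 stayed, 33 moved and 1 changed sign. Of 840 values of single genes 712 stayed, 106 moved and 22 changed sign. The scalings by edgeR and DESeq2 shifted all ratios by 0.017 to 0.089 (log2).

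Outside clusters 10 to 13, the members' median of -0.28 and the 9 lower genes became -0.048 and 1 with a mean over cells in place of sums, -0.015 and 1 with cells thinned to 1000 UMIs, and -0.016 and 1 without the 5% of cells with most UMIs. They became -0.062 and 5 without clusters 17 and 18, and 0.09 and 1 without clusters 6, 17 and 18, alternatives chosen after seeing the data. Of these settings only the last had the share of all genes counted (1.44%). Ratios of single genes there that changed sign were, with the mean over cells, Mcm3 (0.053), with thinning, Mcm3 (0.046), Mcm5 (0.29), Gmnn (0.047), Cdt1 (0.22), Slbp (0.14) and E2f1 (0.26), without the deepest cells, Rrm2 (0.096) and Gmnn (0.044), and without clusters 17 and 18, Rrm2 (0.17). Without clusters 6, 17 and 18 they were Mcm3 (0.15), Mcm7 (0.034), Tyms (0.12), Rrm2 (0.22), Gmnn (0.062), Ung (0.13) and Hells (0.094). In clusters 10 to 13, thinning gave Tyms 0.15, Cdt1 -0.021 and Rfc2 -0.42, and leaving out the deepest cells gave Pcna -0.019 and Lig1 -0.074. These ratios of single genes under other settings have no interval here.

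Counts past 0.5 became 1 higher in clusters 10 and 12 without the deepest cells, in cluster 11 with thinning and in cluster 13 with the mean over cells. The 2 lower genes of cluster 13 became 0 with the mean over cells, thinning or without the deepest cells, and 1 with a minimum of 200 UMIs. The level in clusters 10 to 13 over the others became 8.63 in WT and 9.02 in KO with the mean over cells, 8.82 and 9.15 with thinning, and 9.11 and 8.92 without the deepest cells, so that the order of the libraries changed in the last. In KO it was 9.97 without ribosomal and mitochondrial genes and 9.88 without the 6% of cells with the highest Scrublet scores. The share of cells was 10.6% and 8.94% at 4 UMIs and 6.28% and 5.40% at 8. The median likeness was 0.802 by Spearman's rho. Against cluster 11, thinning left 15 genes lower and 2 higher in cluster 10, and 3 were higher without the deepest cells, settings also added after seeing the data. The cause of these changes was not tested. Scrublet's own threshold marked 3 WT and 0 KO cells, so it has not worked here. With 1 library per genotype, depth limits the counting intervals alone, and no interval covers the spread between mice.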

Other observations

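Cluster 17 had few mitochondrial transcripts. Its median share of mitochondrial UMIs was 0.0987% in WT and 0.442% in KO, against 5.39% and 5.52% over all cells, at medians of 1074 and 1380 UMIs per cell. It had the highest level of the 19 clusters for 6 of the 35 genes (Mcm3, Mcm7, Nasp, Lig1, Pold3 and Tipin), from 340 UMIs of the 35 genes in WT and 359 in KO. Its leading genes included Pole and Lig1. Cluster 18 was led by Igfbp4, Eomes, Nkg7 and Il2rb, and 62.5% (40.6 to 81.2) of its 24 WT cells and 87.5% (47.3 to 99.7) of its 8 KO cells kept at least 5 UMIs of the 35 genes of 1000.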
